A study of Mus musculus with 5 samples.

Results

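Osr2 Gfra1 fibroblasts are cells of the mouse spinal cord sort that carried transcripts of a collagen-making fibroblast together with those of at least 2 of the genes Gfra1, Osr2, Smoc2 and Col9a2. A barcode was taken as a member if it had at least 3 UMIs (unique molecular identifiers, 1 per captured transcript) over these 4 marker genes, from at least 2 of them, and at least 2 UMIs over Col1a1, Col1a2, Col3a1 and Dcn. Of the 4678 cells kept after filtering, 706 met the rule (15.1%). They are set against the 3710 other collagen-positive cells, which met the collagen part of the rule and not the marker part. The rule was chosen on these data, and its markers were known to be lower in disease, so the levels of the 8 genes in it, the share of members and every contrast of members with other cells are given as a description with no test.

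The cells came from mice with a green fluorescent reporter for Col1a1 on a C57/BL6 background, whose cords were dissociated and sorted for reporter-positive cells before droplet single-cell RNA-seq. Healthy mice gave 3 libraries (Healthy 1, 2 and 3) and mice with experimental autoimmune encephalomyelitis (EAE), an immune attack on myelin, gave 2 (EAE 1 and EAE 2). All animals thus carried the reporter, and a fibroblast without reporter signal would not have been sorted. The labels give no age, no day of disease and no number of animals, and nothing in them ties a library to its own animals. The p-values given here therefore cover the variation among the 5 libraries, which may be technical. Healthy 3 and EAE 2 have a sequencing lane in their labels and were taken as the second batch, the other 3 libraries as the first.

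The tables held between 1588693 and 10775024 UMIs per library, and the EAE libraries were the deeper. Barcodes were shared between files of the first batch: 996 between Healthy 1 and Healthy 2, 1239 between Healthy 1 and EAE 1 and 683 between Healthy 2 and EAE 1. Each was kept only in the file where it had most UMIs, which left out 2226 barcodes. Of the members, 3 in Healthy 1, 160 in Healthy 2 and 45 in EAE 1 had a barcode that also occurred in another file, and values without them are given below.

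Gfra1 encodes the cell-surface receptor subunit that binds glial cell line-derived neurotrophic factor and signals together with the kinase Ret. Osr2 is a zinc-finger transcription factor of the odd-skipped family, expressed in connective tissue and used as a marker of fibroblasts inside peripheral nerve. Smoc2 is a secreted calcium-binding matrix protein, Col9a2 a chain of type IX collagen, which decorates collagen fibrils, and Gsn (gelsolin) an actin-severing protein found inside cells and in plasma. Cord fibroblasts lie in the meninges, around vessels and along the nerve roots, and make the matrix of scars after injury or inflammation. In the mm10 assembly (GENCODE M21) Gfra1 lies on chromosome 19 from 58235604 to 58455909, Osr2 on chromosome 15 from 35296098 to 35303305, Smoc2 on chromosome 17 from 14279506 to 14404790, Col9a2 on chromosome 4 from 121039385 to 121055322 and Gsn on chromosome 2 from 35256380 to 35307892, each a protein-coding gene.

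The members were found in every library and were the larger share in health. Healthy 1, 2 and 3 held 144, 188 and 185 members, and EAE 1 and EAE 2 held 93 and 96. As a share of collagen-positive cells these were 21.2, 45.6 and 50.1% in the Healthy libraries (39.0% ± 15.6, SD, n = 3) and 5.33 and 7.94% in the EAE libraries (6.63% ± 1.85, SD, n = 2). All 3 Healthy libraries were above both EAE libraries, with exact Clopper-Pearson 95% intervals, which cover counting error only, running from 18.2% to 24.4% in Healthy 1 and from 6.48% to 9.61% in EAE 2. The cells differed in depth: the median UMI count of collagen-positive cells outside the rule was 1064, 2790, 3582, 4675 and 5222 in Healthy 1, 2, 3, EAE 1 and EAE 2. For members it was 1847.5, 3711, 5067, 3498 and 4306.5 in the same order, so members were deepest in Healthy 3. When each cell was thinned to 1000 UMIs before the rule and shallower cells were left out, the share was 13.5, 14.9 and 19.1% in Healthy and 0.526 and 1.49% in EAE, so the libraries kept their order by state at equal depth. With barcodes that occurred in several files left out of all of them, the share was 20.8, 25 and 50.1% in Healthy and 9.09 and 7.94% in EAE. A smaller share in a sort may reflect fewer of these cells, more of the others, or cells of the same kind with too few marker UMIs for the rule. These cannot be told apart here. Levels of Smoc2 and Col9a2 were lower in the EAE members themselves, as described below.

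**Figure D1:**
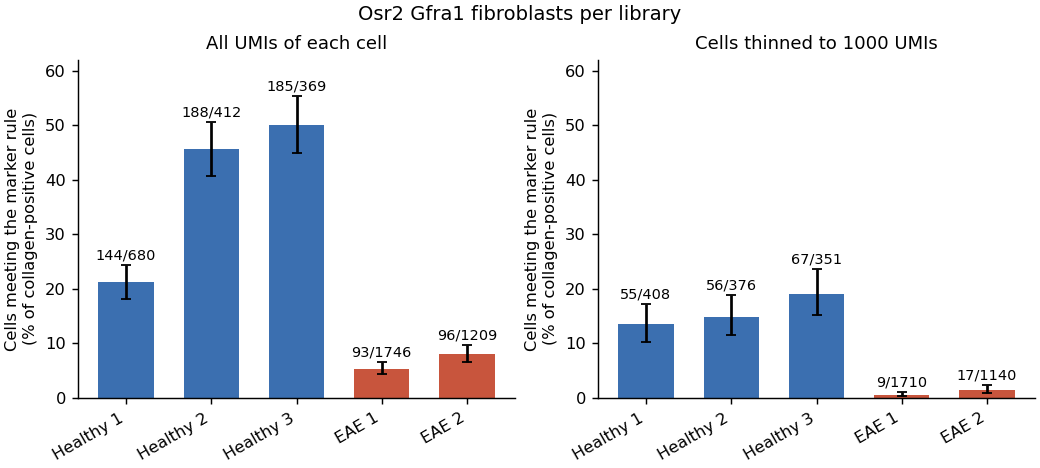
Share of collagen-positive cells that met the marker rule in each library (y axis, percent), with all UMIs on the left and with cells thinned to 1000 UMIs on the right. Bars are blue for Healthy and red for EAE, whiskers are exact 95% binomial intervals and the labels give members over collagen-positive cells. The 3 Healthy bars stand above both EAE bars in each panel.

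Smoc2 carried most of the marker signal. It had a UMI in 98.3% of members and made up 58.6% of their marker UMIs, while Gfra1 was seen in 59.6%, Osr2 in 54.4% and Col9a2 in 59.3%. Most members showed only some of the markers: 312 had 2 of the 4 genes, 282 had 3 and 112 had all 4. Gfra1 and Osr2 were found together in 25 of 144, 50 of 188, 77 of 185, 14 of 93 and 40 of 96 members of Healthy 1, 2, 3, EAE 1 and EAE 2. Members of EAE 1 lay nearest to the threshold, and those of EAE 2 were at the level of Healthy 1, with a median of 5, 8, 10, 4 and 5 marker UMIs in Healthy 1, 2, 3, EAE 1 and EAE 2. Exactly 3 marker UMIs were found in 131 members. Just outside the rule lay 101 collagen-positive cells with 2 UMIs from 2 genes and 200 with at least 3 UMIs from a single gene, which was Smoc2 in 190 of them. Gsn, which the rule did not use, was at 6384, 5893, 3521, 1479.8 and 1511 CPM (UMIs of a gene per 1000000 UMIs summed over a cell set) in members with exactly 3 marker UMIs in the 5 libraries in that order. It was at 6049, 6270.1, 3342, 822 and 1389.8 CPM in the cells with 2 UMIs from 2 genes and at 1893, 2038, 1541, 236 and 214 CPM in collagen-positive cells with no marker UMI. Cells with at least 3 UMIs from a single gene had 7345, 5642, 4001, 757 and 1028 CPM. The threshold thus cut through a range of cells: those just outside it were in each library above the cells without any marker UMI, and in EAE 1 they lay nearer to those cells than to the members.

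The 4 markers went together in cells picked without the gene in question. Cells that met the rule on the other 3 genes had 423, 176, 439, 84.1 and 256 CPM of Gfra1 in Healthy 1, 2, 3, EAE 1 and EAE 2, against 144, 44.9, 89.5, 6.32 and 9.22 CPM in the rest of the collagen-positive cells. Osr2, left out in the same way, was at 199.9, 230.3, 194, 117 and 193 CPM against 65, 87.7, 31.6, 8.36 and 8.89 CPM. For Smoc2 the ratios between both kinds of cells were 2.76, 1.93, 3.07, 5.45 and 13.4, and for Col9a2 they were 2.49, 3.06, 4.72, 7.36 and 8.51. Every one of these 20 ratios was above 1, and for each gene both EAE ratios were above the 3 Healthy ones, while the rest of the collagen-positive cells held less Gfra1 and Osr2 in EAE.

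**Figure D2:**
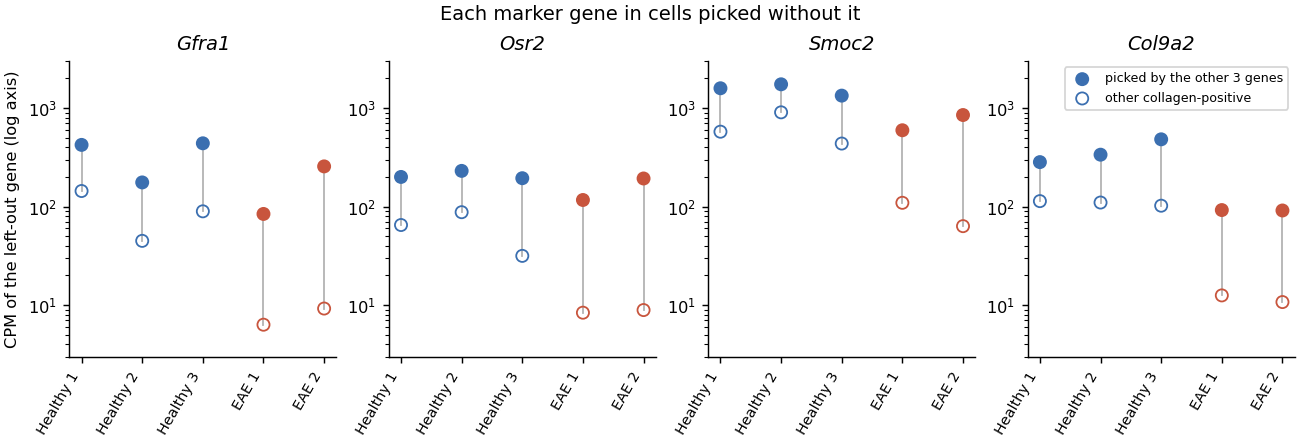
CPM (log axis) of each marker gene in cells picked by the other 3 marker genes (filled points) and in the remaining collagen-positive cells (open points), per library, blue for Healthy and red for EAE. In all 4 panels and all 5 libraries the filled point lies above the open point.

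As fibroblasts, the members held high levels of the proteoglycan decorin, which is part of the rule: Dcn was at 36532, 42584 and 33462 CPM in Healthy members and 23166 and 26934 CPM in EAE members, and both EAE values were lower. Pdgfra, a receptor tyrosine kinase usual in fibroblasts that is not part of the rule, was at 249, 243 and 252 CPM in Healthy 1, 2 and 3 and 219 and 275 CPM in EAE 1 and EAE 2, with overlapping states and ratios to the other collagen-positive cells of 0.961, 1.24, 0.844, 0.786 and 0.996. Defining markers of other cells were low on the summed scale, but many members held a few UMIs from their lists. UMIs of the immune, endothelial, mural, Schwann and red cell lists are called UMIs of other cell types here. These lists hold Pmp22, which fibroblasts also express, and Cdh5 and Cspg4, so such a UMI need not come from another cell. At least 2 of these UMIs were found in 32 of 144, 89 of 188 and 121 of 185 members of Healthy 1, 2 and 3. In EAE 1 and EAE 2 they were found in 66 of 93 and 70 of 96 members. Values without those members are given below. The summed level of 17 measured immune genes was 10.7, 17, 25.8, 29 and 15.9 CPM in the members of Healthy 1, 2, 3, EAE 1 and EAE 2, with Ptprc, Tyrobp, Itgam, Cd3d, Cd3g, Nkg7 and Ms4a1 at 0 in all. The 12 mural genes summed to 174, 56.8, 61.7, 206 and 152 CPM against 810.2, 4272, 3618, 1011 and 1039 CPM in the other collagen-positive cells, and of them Cspg4 was at 10.7, 15.6 and 41.5 CPM in Healthy and 100.1 and 88.6 CPM in EAE in members and passed the test for EAE against Healthy (edgeR adjusted p = 0.014), a call lost under 7 of 15 alternatives. The 11 endothelial genes summed to 56.8, 59.6, 102, 198 and 159 CPM with Kdr and Plvap at 0, and most of the EAE value was Cdh5. Cdh5, an adhesion protein of endothelium, was at 35.5, 38.3 and 33.7 CPM in Healthy and 155 and 109 CPM in EAE in members and passed the test (log2 1.86, edgeR adjusted p = 9.1e-04), while Cldn5, another endothelial gene, was at 0, 0 and 0 CPM in Healthy and 2.64 and 0 CPM in EAE. Pecam1, on the same list, had a UMI in 3 of 144, 4 of 188 and 33 of 185 members of Healthy 1, 2 and 3. In EAE 1 and EAE 2 it had a UMI in 1 of 93 and 7 of 96 members. The Healthy 3 share was 17.8% of members against 10.3% of the other collagen-positive cells, and its source was not tested. The 12 Schwann cell genes summed to 330.2, 316, 359, 295 and 320.3 CPM, of which Pmp22, also expressed by fibroblasts, was the highest. The 11 neuron and astrocyte genes summed to 241, 180.2, 256, 374 and 266 CPM, with Slc1a3 the highest and Rbfox3, Snap25, Syt1, Nefl, Gfap and Aqp4 at 0 in all. Immune cells of the EAE sort (at least 10 UMIs of immune genes, 134 cells in EAE 1 and 30 in EAE 2) had a Gfra1 UMI in 0% and 0% and a Smoc2 UMI in 0.746% and 3.33%, at median depths of 3344 and 2562 UMIs. These shares describe a cell type that should lack both genes, while the shares in members were set by the rule.

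Ret, the signalling partner of Gfra1, was close to absent from the members. Its level was 0, 2.84 and 2.24 CPM in Healthy 1, 2 and 3 and 2.64 and 4.54 CPM in EAE 1 and EAE 2, seen in 0, 1.06, 1.08, 1.08 and 2.08% of cells, too low to be tested. Besides Gfra1, which is in the rule, 13 genes for ligands and receptors of the family were measured, Ret among them. Of these only Ncam1, an adhesion molecule that can also bind the ligand and Gfra1, passed the filter on low counts, with a log2 difference between EAE and Healthy of 0.02 (edgeR adjusted p = 0.99). Gfra2 was at 10.7, 9.93 and 12.3 CPM in Healthy members and 10.5 and 13.6 CPM in EAE members, and Gdnf itself had no UMI in members of 4 libraries.

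Genes outside the rule that stood highest in the members over the other collagen-positive cells were ranked by their smallest ratio over the Healthy libraries, among genes with at least 100 CPM in the members of each. Dlk1, a membrane ligand of the Notch family found on progenitors, led with ratios of 3.18, 17 and 48 in Healthy 1, 2 and 3. It was followed by Fndc5, the precursor of irisin (3.04, 3.79 and 5.80), Ebf2, a transcription factor of mesenchyme (2.85, 3.01 and 3.74), Ngfr, the low-affinity neurotrophin receptor (3.28, 2.83 and 5.52) and Hpca, a neuronal calcium sensor (3.10, 2.79 and 6.34). The eotaxin gene Ccl11 (3.31, 2.64 and 6), the glypican Gpc3 (2.62, 2.99 and 5.25) and the Wnt antagonist Frzb (2.57, 4 and 3.98) came next with the phospholipase Pla2g7 (2.67, 3.69 and 9.56). Srpx, Vcan, Lum, Mmp2, Scara5 and Gsn completed the 15, with smallest ratios between 2.19 and 2.50. For comparison, 19.1% of the 3122 genes with at least 50 CPM were higher in members in all 3 Healthy libraries and 36% were lower in all 3.

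These genes differed in how they stood in EAE. Ebf2 was at 213, 210.03 and 197 CPM in Healthy and 250.3 and 373 CPM in EAE in members, and its ratio to the other cells was 9.98 and 12.4 in EAE 1 and EAE 2, above all Healthy ratios. Scara5, a ferritin receptor of fibroblasts, was at 241, 255 and 241 CPM in Healthy and 498 and 432 CPM in EAE, with EAE ratios of 3.87 and 4.98. Gpc3 was at 1988, 1683 and 1847 CPM in Healthy and 1299 and 1633 CPM in EAE, with EAE ratios of 10.1 and 8.57, again above all Healthy ones. Vcan (versican, a large matrix proteoglycan) did not separate the cells in EAE: its ratios were 2.49, 2.59 and 6.32 in Healthy and 1.25 and 0.836 in EAE. Pla2g7 was similar, with EAE ratios of 1.39 and 1.43.

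The genes with the lowest ratios were a set of 10 added after their values were seen. Among them, Pi16, Ptgds, Itih5, Fmod, Clec3b and Igfbp2 were on the lists of other meningeal and adventitial fibroblasts. Pi16, an adventitial fibroblast marker, was at 0.0330, 0.0296 and 0.0220 times the level of the other cells in Healthy 1, 2 and 3. Ptgds, the prostaglandin D synthase of arachnoid cells, was at 0.0336, 0.0129 and 0.0324 times. Fbln1, Pmepa1, Itih5, Fmod, Cmbl, Mfap4, Clec3b and Igfbp2 followed, none of them above 0.0979 times in any Healthy library. Cells picked in the same way by Clec3b, Fmod and Igfbp2 (793 cells) or by Itih5, Hsd11b1 and Edn3 (707 cells) overlapped with the members in part. Of the first, 2 of 164, 3 of 75, 13 of 131, 6 of 271 and 1 of 152 cells of Healthy 1, 2, 3, EAE 1 and EAE 2 were also members. Of the second, 4 of 89, 14 of 53, 31 of 117, 8 of 223 and 3 of 225 cells were. The overlap was thus largest for the Itih5, Hsd11b1 and Edn3 cells of Healthy 2 and Healthy 3, which held 188 and 185 members. Gsn was at 1465, 2640.04, 2039, 375 and 429 CPM in the Clec3b, Fmod and Igfbp2 cells that were not members, below the members in every library.

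**Figure D3:**
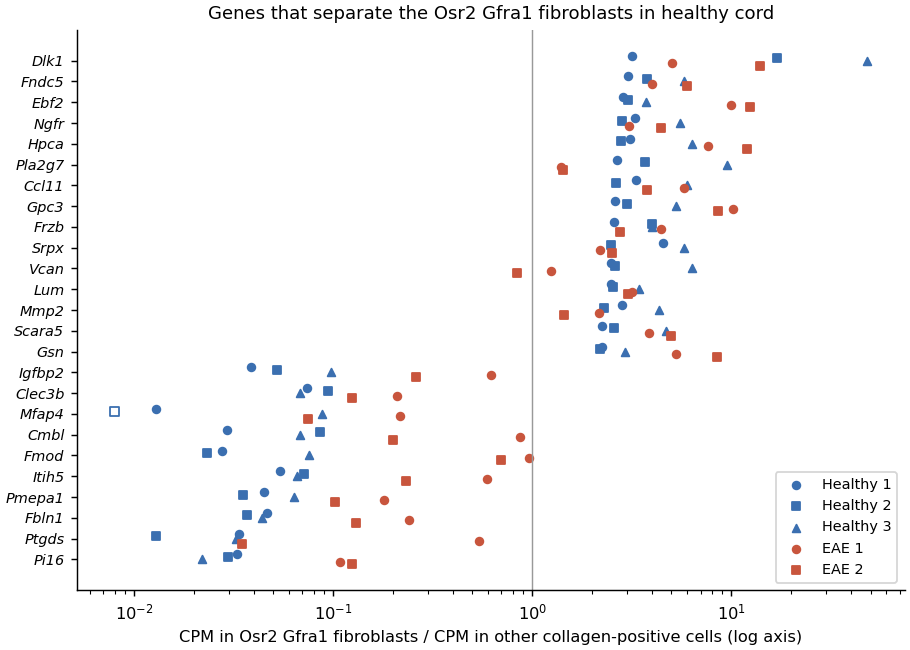
Level in Osr2 Gfra1 fibroblasts divided by that in the other collagen-positive cells of the same library (log axis), for the 15 genes with the highest and the 10 with the lowest ratios in health. Points are libraries, blue for Healthy and red for EAE, and Mfap4 in Healthy 2, with no UMI in the members, is drawn as an open point at the left edge. The genes were ranked on the blue points, so their side of the line is by choice, and the red points show Vcan near 1 and most of the low genes closer to 1 than in health.

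Of the 10 genes listed as typical of fibroblasts inside nerve, Osr2 and Gfra1 were part of the rule. Outside the rule, 6 of the list reached a mean of 50 CPM (Sox9, Etv1, Abca8a, Col26a1, Plxdc1 and Cdkn2a), and all 6 were higher in the members in all 3 Healthy libraries. Sox9, a transcription factor of cartilage and nerve fibroblasts, was at 217, 140.5 and 275 CPM in Healthy members against 126, 69.7 and 113 CPM in the other cells. Abca8a, a lipid transporter, was at 433, 399 and 331 CPM against 229.5, 156 and 149 CPM. Etv1, a transcription factor of the ETS family, was at 107, 114 and 144 CPM against 81.6, 52.6 and 42.5 CPM. Wif1, a secreted Wnt inhibitor on the same list, was lower in members in health, at 14.2, 9.93 and 4.49 CPM against 49.8, 34.1 and 14.7 CPM. Other lists went the other way in health: 4 of 4 genes of the arachnoid barrier and 6 of 7 of tendon and dural fibroblasts that reached 50 CPM were lower in members in all 3 Healthy libraries. Lists of pial and perivascular fibroblasts (3 of 8 higher, 5 lower) and of adventitial and epineurial fibroblasts (2 of 7 higher, 4 lower) were split. Of all 3122 genes that reached 50 CPM, 19.1% were higher and 36% lower in members in all 3 Healthy libraries. The place of the cells in the cord or its roots was not measured.

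EAE members were compared with Healthy members on UMI sums per library with edgeR's quasi-likelihood test and a term for batch. Of 5726 genes tested, 130 (2.27%) were higher and 61 (1.07%) were lower at an adjusted p under 0.05, together 3.34% of the genes, and 59 of the lower ones lay outside the rule. The same test in the other collagen-positive cells, which held more cells and UMIs, found 494 higher (6.21%) and 475 lower (5.97%) of 7955. Among genes tested in the members, 16.7% had both EAE libraries above all Healthy ones and 14% had both below, and the median log2 difference was 0.00. The counts moved with the settings: DESeq2 gave 62 higher and 22 lower, and leaving out all barcodes that occurred in several files gave 64 and 21. Of the 130 and 61 genes, 105 and 61 could be tested again without the shared barcodes, and each of these kept its direction.

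**Figure D4:**
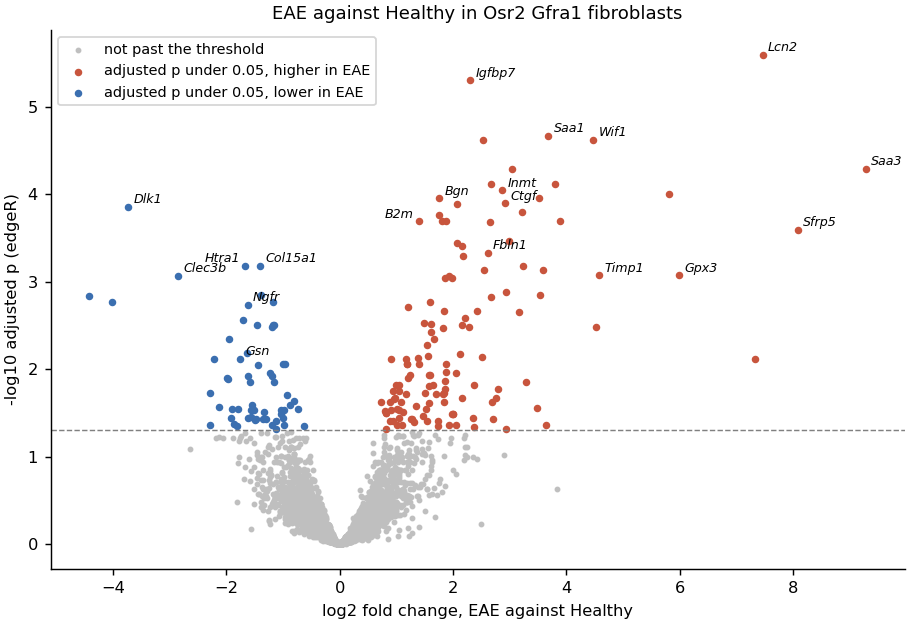
Log2 fold change of EAE against Healthy (x axis) and -log10 of the adjusted p from edgeR (y axis) for each gene tested in Osr2 Gfra1 fibroblasts, leaving out the 8 genes of the rule. The dashed line is the threshold, red points are higher and blue points lower in EAE, and the named genes are described in the text, with more points past the line on the right (130) than on the left (59).

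Acute phase genes led the rises in EAE. Saa3, the serum amyloid A gene of connective tissue and macrophages, was at 17.8, 11.4 and 0 CPM in Healthy 1, 2 and 3 and 6035 and 2578 CPM in EAE 1 and EAE 2. Both EAE libraries lay far above all Healthy ones (log2 fold change 9.28, SE 0.44, edgeR adjusted p = 5.1e-05), with a UMI in 2.08, 2.66, 0, 59.1 and 43.8% of members of Healthy 1, 2, 3, EAE 1 and EAE 2. The call on Saa3 was lost in 4 of 17 alternatives: with all barcodes as deposited (edgeR adjusted p = 0.33), without Healthy 2 (edgeR adjusted p = 0.053), without the shared barcodes (edgeR adjusted p = 0.31, log2 fold change 8.14) and without the batch term (edgeR adjusted p = 0.084). In immune cells of the same EAE libraries Saa3 was at 226 and 52.1 CPM with a UMI in 12.7% and 3.33% of cells, and in 47 melanocytes of EAE 1 at 7.03 CPM. Mural cells of the sort (186 in EAE 1 and 128 in EAE 2) held 1102 and 818 CPM with a UMI in 67.7% and 39.1% of cells, at median depths of 6424 and 11309.5 UMIs. All these levels were below those of the members, though the share of mural cells with a UMI in EAE 1 was above that of members. Members that met a stricter rule (at least 5 marker UMIs from at least 3 genes, 331 cells) had 7705 and 1620.2 CPM in EAE 1 and EAE 2 and 0, 5 and 0 CPM in Healthy.

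Lcn2, an iron-scavenging protein of the acute phase, had 2 UMIs in all Healthy members and 179 in EAE members. On the summed levels this was a ratio of 205 with a counting interval from 55.9 to 1706, and edgeR gave an adjusted p of 2.5e-06, with both EAE libraries (379 and 79.5 CPM) above all 3 Healthy ones. Saa1 was at 78.1, 38.3 and 65.1 CPM in Healthy and 972 and 577 CPM in EAE (log2 fold change 3.68, SE 0.28, edgeR adjusted p = 2.1e-05). Saa2 was at 35.5, 12.8 and 14.6 CPM in Healthy and 429.5 and 109 CPM in EAE (log2 3.80). Saa1 and Saa2 are near-identical copies whose reads the counting may have split, so their separate values are uncertain. Both calls were lost without members that carried UMIs of other cell types (edgeR adjusted p = 0.14 for Saa1), and that on Saa2 also without the batch term. Haptoglobin (Hp), which binds free haemoglobin, was at 7.10, 2.84 and 4.49 CPM in Healthy and 68.5 and 38.6 CPM in EAE (log2 fold change 3.53, SE 0.51, edgeR adjusted p = 0.0014).

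Of the 16 genes tested from a list of acute phase and complement genes, 9 rose and none fell, with a median log2 difference of 1.78 where that of all genes was 0.00. Beside the 5 above these included the complement genes C4b (log2 2.15), C1ra (1.04) and C1s1 (1.01). C1ra, a protease of the first complement component, was at 124, 123 and 148 CPM in Healthy and 289.9 and 275 CPM in EAE, with both EAE libraries above all Healthy ones. C3, the central complement protein, was at 74.6, 12.8 and 3.37 CPM in Healthy and 250.3 and 284 CPM in EAE and did not pass the test (edgeR adjusted p = 0.23). The other collagen-positive cells had 7 of 20 genes of the list higher and 1 lower, and the list was chosen with earlier results of these data known. Over all genes tested, 2.27% were higher and 1.07% lower in members, and 6.21% and 5.97% in the other cells.

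**Figure D5:**
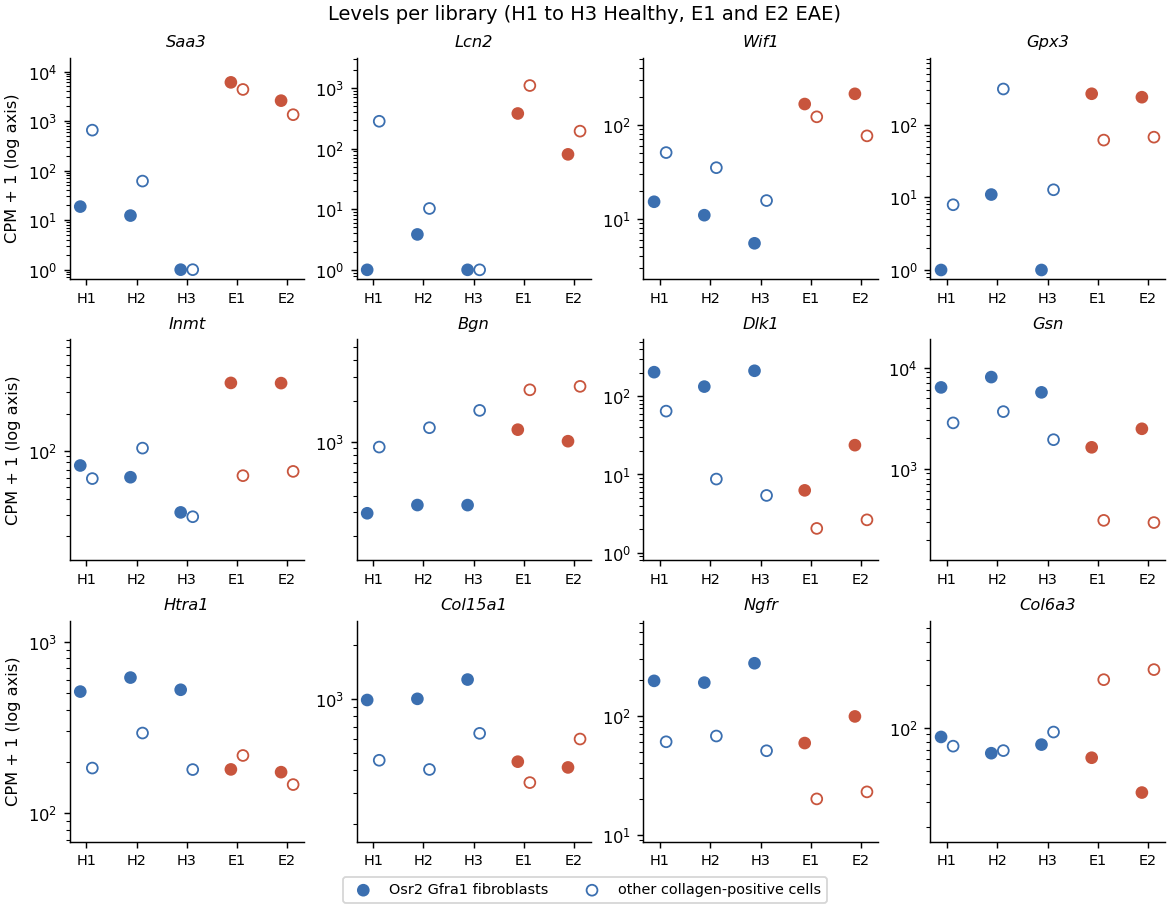
CPM + 1 (log axis) of 12 genes per library in Osr2 Gfra1 fibroblasts (filled) and in the other collagen-positive cells (open), blue for Healthy (H1 to H3) and red for EAE (E1, E2). Filled EAE points lie above all filled Healthy points for Saa3 to Bgn and below them for Dlk1 to Col6a3, while open points differ, as for Inmt and Col6a3.

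The secreted Wnt antagonists Wif1, Sfrp5 and Sfrp4 rose as well. Wif1, low in Healthy members, was at 14.2, 9.93 and 4.49 CPM in Healthy 1, 2 and 3 and 166 and 214 CPM in EAE 1 and EAE 2 (log2 fold change 4.47, SE 0.37, edgeR adjusted p = 2.4e-05), with a UMI in 2.78, 3.72, 1.62, 34.4 and 31.2% of members of the 5 libraries. In the other cells it was at 49.8, 34.1 and 14.7 CPM in Healthy and 121 and 75.5 CPM in EAE, a smaller rise by the test of the difference (log2 fold change 2.73, SE 0.47, edgeR adjusted p = 3.2e-04). Sfrp5, another inhibitor of Wnt signalling, had no UMI in Healthy members and 52 in EAE members (63.2 and 63.6 CPM). Against a limit of 3 UMIs over the Healthy members, it was at least 39.7-fold higher (edgeR adjusted p = 2.5e-04). Of the 10 tested genes from a list of Wnt ligands and antagonists, 4 rose and none fell, the others being the ligand Wnt6 (10.7, 11.4 and 12.3 CPM in Healthy and 84.3 and 47.7 CPM in EAE) and the antagonist Sfrp4 (10.7, 34.1 and 28 CPM in Healthy and 87 and 120.4 CPM in EAE). Over all genes tested in members, 2.27% rose and 1.07% fell. Frzb, which marked the members in health, was at 209, 204 and 151 CPM in Healthy and 184 and 114 CPM in EAE with no call (edgeR adjusted p = 0.56). Within EAE, Wif1 and Saa3 were found together in 25 of 93 members of EAE 1 and 18 of 96 of EAE 2, where 32 and 30 had Wif1 and 55 and 42 had Saa3. The call on Wif1 was lost without members that carried UMIs of other cell types (edgeR adjusted p = 0.072).

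Other large rises were in genes of metabolism and the matrix. Gpx3, a secreted glutathione peroxidase, was at 0, 9.93 and 0 CPM in Healthy and 266 and 239 CPM in EAE (log2 fold change 5.99, SE 0.59, edgeR adjusted p = 8.4e-04), a call that DESeq2 did not give (DESeq2 adjusted p = 0.18). Inmt, an indolethylamine methyltransferase, was at 74.6, 59.6 and 30.3 CPM in Healthy and 356 and 354 CPM in EAE (log2 fold change 2.86, SE 0.29, edgeR adjusted p = 9.0e-05). The retinol carrier Rbp4 was at 88.8, 29.8 and 141 CPM in Healthy and 574 and 529 CPM in EAE (log2 2.68, edgeR adjusted p = 0.024), a call lost without the batch term and with library totals as the scaling. All 3 were higher in both EAE libraries than in any Healthy one. The tight junction gene Cldn1, found in perineurial and barrier cells, was at 42.6, 22.7 and 39.3 CPM in Healthy and 111 and 95.4 CPM in EAE in members (log2 fold change 1.57, SE 0.31, edgeR adjusted p = 0.012). Ctgf, a matricellular protein, was at 39.1, 15.6 and 26.9 CPM in Healthy and 166 and 229 CPM in EAE (log2 fold change 2.92, SE 0.31, edgeR adjusted p = 1.3e-04), while the other cells held 259, 186 and 230.1 CPM in Healthy and 206 and 174 CPM in EAE. Pmepa1, which dampens TGF-beta signalling, was at 10.7, 8.51 and 20.2 CPM in Healthy and 132 and 99.96 CPM in EAE (log2 2.99), and Tmem176a, a membrane protein, at 21.3, 46.8 and 21.3 CPM in Healthy and 332 and 177 CPM in EAE (log2 3.05). The call on Cldn1 was lost under 5 of 16 alternatives.

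Among matrix genes, biglycan (Bgn), a small proteoglycan that also signals in inflammation, was at 295, 339 and 339 CPM in Healthy and 1228 and 1009 CPM in EAE (log2 fold change 1.75, SE 0.18, edgeR adjusted p = 1.1e-04). Fibulin 1 (Fbln1), an elastic fibre protein, was at 17.8, 14.2 and 24.7 CPM in Healthy and 150.2 and 97.7 CPM in EAE (log2 fold change 2.61, SE 0.33, edgeR adjusted p = 4.7e-04). Osteopontin (Spp1), an adhesive phosphoprotein, was at 249, 324 and 248 CPM in Healthy and 1046 and 799.7 CPM in EAE (log2 fold change 1.75, SE 0.19, edgeR adjusted p = 1.7e-04). Matn4, an adapter of matrix filaments, was at 24.9, 35.5 and 38.1 CPM in Healthy and 200.3 and 125 CPM in EAE (log2 2.18). Each of these 4 had both EAE libraries above all Healthy ones. The calls on Fbln1 and Matn4 were lost without members that carried UMIs of other cell types (edgeR adjusted p = 0.068 and 0.18). Timp1, an inhibitor of metalloproteinases, was at 56.8, 12.8 and 4.49 CPM in Healthy and 577 and 193 CPM in EAE (log2 fold change 4.57, SE 0.45, edgeR adjusted p = 8.4e-04), but without the batch term the adjusted p was 0.24. The call on Timp1 was also lost without members that carried UMIs of other cell types. In EAE 1 and EAE 2 Timp1 was higher in the other collagen-positive cells (1906 and 717 CPM) and in mural cells (3947 and 1681 CPM) than in members. Immune cells held 485 and 104 CPM of it. The part of free RNA in the members' Timp1 level was not tested. Igfbp7, a binding protein of insulin-like growth factors, differed between batches in health and was at 1054, 1202 and 291 CPM in Healthy 1, 2 and 3 and 5787 and 1461 CPM in EAE 1 and EAE 2. EAE 1 was above Healthy 1 and 2, EAE 2 above Healthy 3, and the test with a batch term gave a log2 fold change of 2.31 (edgeR adjusted p = 4.9e-06), and an adjusted p of 0.54 without that term. Igfbp7 is abundant in mural cells too, where it was at 6169 and 2290.2 CPM in EAE, and its part in the members' level through free RNA was not tested.

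Of a list of 40 matrix proteoglycans and glycoproteins, 28 were tested in members, 4 rose (Fbln1, Bgn, Fn1 and Fbn1) and 2 fell (Efemp1 and Abi3bp). For this and the following lists, the shares over all genes tested in members were 2.27% higher and 1.07% lower. Among 23 proteases and inhibitors 4 rose (Timp1, Adamts5, Serpine2 and Timp3) and 2 fell (Htra1 and Serpinh1). The calls on Fbn1 and Abi3bp were lost under 9 of 17 alternatives each. Serpinh1, the collagen chaperone, was at 1598, 1772 and 1475 CPM in Healthy and 1112 and 829 CPM in EAE (log2 fold change -0.73, SE 0.17, edgeR adjusted p = 0.028), a call lost under 9 of 17 alternatives, DESeq2 and no batch term among them. Of 24 transcription factors of mesenchyme 2 rose and none fell: Runx1 was at 28.4, 12.8 and 23.6 CPM in Healthy and 58 and 99.96 CPM in EAE and Nr2f2, a nuclear receptor, at 114, 175 and 242 CPM in Healthy and 443 and 432 CPM in EAE. Their calls were lost under 6 of 16 and 3 of 17 alternatives. Of 15 Hox genes, which mark position along the body axis, none passed in either direction, with levels in members of 63.9, 68.1 and 47.1 CPM in Healthy and 87 and 88.6 CPM in EAE for Hoxc10 as an example.

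Genes of antigen presentation on class I molecules rose in part. Of 13 tested, 5 rose (B2m, H2-D1, H2-K1, Psmb8 and H2-Q7) and none fell, where 2.27% of all genes tested in members rose. B2m, the light chain of class I molecules, was at 1051, 1101 and 541 CPM in Healthy and 3270.3 and 1243 CPM in EAE (log2 fold change 1.40, SE 0.16, edgeR adjusted p = 2.0e-04), and without the batch term its edgeR adjusted p was 0.39. The heavy chain H2-D1 was at 809, 785 and 616 CPM in Healthy and 1468 and 1263 CPM in EAE and H2-K1 at 454, 315 and 209.8 CPM in Healthy and 772 and 370.3 CPM in EAE. Psmb8, a subunit of the immunoproteasome, was at 103, 65.3 and 47.1 CPM in Healthy and 187 and 97.7 CPM in EAE, with EAE 2 below Healthy 1. H2-Q7 has near-identical neighbours and few UMIs, 3 in Healthy and 34 in EAE members, a ratio of 26.0 with a counting interval from 8.16 to 132. In the first batch both Healthy libraries were below EAE 1 for each of these genes, and in the second Healthy 3 was below EAE 2. Of 12 interferon-induced genes tested only Iigp1 rose, and its states overlapped (42.6, 17 and 0 CPM in Healthy and 100.1 and 9.09 CPM in EAE). In the other collagen-positive cells 13 of 27 interferon-induced genes rose, where 6.21% of all genes did. The test of the difference was passed by 3 of 28, Irf8, Igtp and Irgm1, each with the lower effect in members, where 2.37% of all genes had a lower one. Irgm1, a GTPase of cell-autonomous immunity, was at 67.5, 39.7 and 30.3 CPM in Healthy and 63.2 and 11.4 CPM in EAE in members and at 65, 38.7 and 27.8 CPM in Healthy and 139 and 45.8 CPM in EAE in the other cells. The chemokine Cxcl9 was at 78.1, 14.2 and 1.12 CPM in Healthy and 21.1 and 2.27 CPM in EAE in members and 23.5, 31 and 0 CPM in Healthy and 396 and 168 CPM in EAE in the other cells, a difference in effect of -5.19 on the log2 scale (SE 0.80, edgeR adjusted p = 0.0016).

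Among the falls in EAE were 5 of the 15 genes that separated the members in health, where 1.07% of all genes tested fell. The 15 were ranked on the same Healthy members, so this count is not independent of the ranking. Dlk1 was at 202, 132 and 211 CPM in Healthy 1, 2 and 3 and 5.27 and 22.7 CPM in EAE 1 and EAE 2, lower in both EAE libraries than in any Healthy one (log2 fold change -3.73, SE 0.40, edgeR adjusted p = 1.4e-04). It had a UMI in 9.72, 13.8 and 18.9% of Healthy members and 2.15 and 3.12% of EAE members. Gsn was at 6366, 8051 and 5689 CPM in Healthy and 1629 and 2483 CPM in EAE (log2 fold change -1.76, SE 0.26, edgeR adjusted p = 0.0076). The call on Gsn was lost when the rule left out Smoc2 (log2 fold change -1.54, edgeR adjusted p = 0.064) and without members that carried UMIs of other cell types (log2 fold change -1.52, edgeR adjusted p = 0.18). With members thinned to 1000 UMIs a Gsn UMI was found in 94.9, 94.6 and 90.7% of Healthy and 66.7 and 82.3% of EAE members, against 98.6, 98.9 and 96.8% and 96.8 and 96.9% at full depth. Ngfr was at 195, 189 and 275 CPM in Healthy and 58 and 97.7 CPM in EAE (log2 fold change -1.62, SE 0.25, edgeR adjusted p = 0.0018), a call lost under 4 of 17 alternatives. Pla2g7 was at 582, 555 and 756 CPM in Healthy and 256 and 249.9 CPM in EAE (log2 -1.38). Srpx fell too and Scara5 rose, with calls lost under 10 of 17 and 11 of 17 alternatives, and the other 9 of the 15 did not pass the test.

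Because members near the threshold may differ from those far inside it, genes that changed were also read in members that met the stricter rule. Dlk1 was then at 431, 185 and 292 CPM in Healthy and 0 and 52.4 CPM in EAE, and Gsn at 7294, 8103 and 5837 and 1754 and 3204 CPM. Htra1 was at 546, 645 and 536 and 177 and 189 CPM. Bgn was at 259, 305 and 256 and 1284 and 787 CPM, and Wif1 at 9.58, 12.5 and 3.16 and 125 and 168 CPM. For these 5 genes the states did not overlap under the stricter rule either, though these cells are a part of the same members and not independent of them. For Igfbp7 they did overlap, at 901, 1195 and 280 CPM in Healthy and 5721 and 1080 CPM in EAE. Gpx3 was at 0, 5 and 0 CPM in Healthy and 41.8 and 157 CPM in EAE under the stricter rule. Members of EAE 1 and EAE 2 that did not meet it held 342 and 301 CPM. In EAE 1 the stricter members had 4 Gpx3 UMIs and the rest 97. Inmt was at 47.9, 60 and 19 CPM in Healthy and 125 and 252 CPM in EAE under the stricter rule, against 434 and 433 CPM in the remaining EAE members. Of the genes called in members, 82 higher and 52 lower ones could be tested again under this rule. Of these, 43 and 13 were called again, and all kept their direction.

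Matrix and vessel-related genes fell beside them. Htra1, a secreted serine protease, was at 511, 617 and 524 CPM in Healthy and 179 and 173 CPM in EAE (log2 fold change -1.67, SE 0.22, edgeR adjusted p = 6.5e-04). Col15a1, a collagen at basement membranes, was at 987, 1002 and 1285 CPM in Healthy and 445 and 413 CPM in EAE (log2 fold change -1.40, SE 0.18, edgeR adjusted p = 6.5e-04). In both cases the Healthy and EAE libraries did not overlap, and the calls held under every alternative run. Clec3b (tetranectin) was at 74.6, 90.8 and 112 CPM in Healthy and 18.4 and 9.09 CPM in EAE in members (log2 -2.85) and at 1008, 962 and 1655 CPM in Healthy and 87.6 and 72.7 CPM in EAE in the other cells, so its level in members was low in both states. Without members that carried UMIs of other cell types its adjusted p was 0.47 (log2 -1.33). Cd34, a sialomucin of adventitial fibroblasts, was at 85.2, 93.7 and 69.6 CPM in Healthy and 23.7 and 18.2 CPM in EAE (log2 -1.95). Edn3 (endothelin 3), Slc13a4 (a sulfate transporter), Efhd1, Pid1, Insig1 and Reln (reelin) were the others of the 12 largest falls among genes with a mean of at least 50 CPM and no overlap of the states, with log2 fold changes between -1.69 and -1.54. The call on Insig1 was lost under 9 of 16 alternatives, Reln under 6 of 16, Efhd1 and Pid1 under 7 of 17 each, Edn3 and Cd34 under 5 of 17 each and Slc13a4 under 4 of 17.

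Among 15 cholesterol synthesis genes tested, Idi1, Insig1 and Msmo1 fell and none rose, with a list median of -1.42 on the log2 scale. Idi1 was at 28.4, 44 and 47.1 CPM in Healthy and 15.8 and 2.27 CPM in EAE, and Msmo1 at 53.3, 59.6 and 71.8 CPM in Healthy and 23.7 and 20.4 CPM in EAE, with the states apart for both, and the call on Idi1 was lost under 6 of 13 alternatives. The other cells had 10 of 17 lower, and of 18 genes none differed in effect between both kinds of cells at an adjusted p under 0.05 by edgeR. Over all genes tested, 1.07% fell in members and 5.97% in the other cells.

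The markers themselves are described without a test. Smoc2 was at 1722, 1738 and 1288 CPM in Healthy and 698 and 704 CPM in EAE in members, and Col9a2 at 398, 369 and 468 CPM in Healthy and 134 and 123 CPM in EAE, both lower in each EAE library than in every Healthy one. Gfra1 was at 572, 192 and 463 CPM in Healthy and 153 and 277 CPM in EAE, with EAE 2 above Healthy 2. Osr2 was at 291, 274 and 208 CPM in Healthy and 208 and 239 CPM in EAE, with EAE 2 above Healthy 3. Since the rule asks for a fixed number of marker UMIs, these levels depend on the depth of the cells. In the other collagen-positive cells Gfra1 was at 51.2, 13.9 and 23.4 CPM in Healthy and 2.44 and 4.30 CPM in EAE and Osr2 at 20.7, 13.9 and 2.93 CPM in Healthy and 2.90 and 2.67 CPM in EAE.

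The effect of EAE was then compared between the members and the other collagen-positive cells in a model with library as a block. Of 8475 genes, 322 (3.8%) had a higher effect in members and 201 (2.37%) a lower one at an adjusted p under 0.05, together 6.17%. The other collagen-positive cells are a mixture whose makeup differed between states, so a different effect may come from a change of makeup there, and this cannot be told apart from a change within cells.

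Among genes with a mean of at least 50 CPM the largest higher effects in members were those of Gpx3, Saa3, Rbp4, Lcn2 and Ctgf. In the other cells Gpx3 was at 6.91, 309.7 and 11.7 CPM in Healthy and 60.5 and 66.5 CPM in EAE, with Healthy 2 the highest, and the difference was 6.96 on the log2 scale (SE 0.41, edgeR adjusted p = 2.3e-13). Saa3 was at 654, 60.4 and 0 CPM in Healthy and 4337 and 1343 CPM in EAE in the other cells, where it did not pass the test (edgeR adjusted p = 0.35), and the difference was 4.73 (SE 0.68, edgeR adjusted p = 0.023). Lcn2 was at 282, 9.29 and 0 CPM in Healthy and 1099.6 and 193 CPM in EAE in the other cells, above the members in EAE, and its difference of 3.87 (SE 0.88, edgeR adjusted p = 0.019) turned to -1.61 without cells that carried UMIs of other cell types. Healthy 1, which held the shallowest cells, was the Healthy library with most Saa3 and Lcn2 in the other cells. Rbp4 was at 954, 477 and 1039 CPM in Healthy and 413 and 226 CPM in EAE in the other cells, without a call (edgeR adjusted p = 0.082), and the difference was 4.12 (SE 0.30, edgeR adjusted p = 7.2e-08). Inmt was at 58.1, 104 and 27.8 CPM in Healthy and 61.4 and 66.6 CPM in EAE in the other cells, with overlapping states and a difference of 2.68 (SE 0.29, edgeR adjusted p = 1.5e-07).

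The effect on fibrillar collagens and on part of the others was lower in members. Col3a1, in the rule and so untested, was at 1772, 2097 and 1743 CPM in Healthy and 2206 and 1036 CPM in EAE in members, where the states overlapped, and 924, 1615 and 1013 CPM in Healthy and 5509.9 and 4446 CPM in EAE in the other cells, where they did not. Col1a1, the reporter's gene and also in the rule, was at 1843, 3546 and 2841 CPM in Healthy and 3510.1 and 2310.4 CPM in EAE in members and 1666, 4497 and 2761 CPM in Healthy and 6962 and 7591 CPM in EAE in the other cells. All 3 fibrillar collagens outside the rule that were tested had a lower effect in members: Col5a1 (log2 difference -1.78), Col5a2 (-1.35) and Col5a3 (-2.16), with adjusted p from edgeR of 1.6e-04, 0.0079 and 9.0e-04. Col5a1 was at 60.4, 62.4 and 67.3 CPM in Healthy and 100.1 and 72.7 CPM in EAE in members and 37.3, 61.9 and 76.2 CPM in Healthy and 268 and 277 CPM in EAE in the other cells. Col6a3 was at 85.2, 65.3 and 75.2 CPM in Healthy and 60.6 and 34.1 CPM in EAE in members and 73.3, 68.1 and 92.3 CPM in Healthy and 217 and 255 CPM in EAE in the other cells. None of these 4 collagens passed the test in members alone. Of 18 collagens outside the fibrillar list, 4 had a lower effect in members (Col6a3, Col8a1, Col15a1 and Col4a1). Col13a1 had a higher one, and 13 did not pass. Over all genes compared, 2.37% had a lower effect in members and 3.8% a higher one. In members alone Col8a1 and Col23a1 rose (edgeR adjusted p = 0.044 and 0.043), with calls lost under 9 of 17 and 8 of 14 alternatives. Spon1, Tnc and Postn, matrix proteins made in repair, did not pass the filter on low counts in members, with Tnc at 3.55, 0 and 3.37 CPM in Healthy and 23.7 and 4.54 CPM in EAE against 20.7, 18.6 and 20.5 CPM in Healthy and 119.9 and 106 CPM in EAE in the other cells.

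Immediate early genes, which respond within minutes to stimuli and to cell dissociation, differed in the other direction, with a higher effect in members. In members 1 of 20 rose (Fosl2, 24.9, 24.1 and 41.5 CPM in Healthy and 63.2 and 95.4 CPM in EAE) with a call lost under 8 of 13 alternatives, and none fell. In the other cells 10 of 22 fell, where 5.97% of all genes did. The effect was higher in members for 14 of 23, where it was for 3.8% of all genes. Junb was at 1821, 2578 and 2324 CPM in Healthy and 1486 and 3383 CPM in EAE in members and 4914, 3527 and 5331 CPM in Healthy and 1133 and 1961 CPM in EAE in the other cells (log2 fold change 1.59, SE 0.29, edgeR adjusted p = 0.0096 for the difference). In health 15 of the 18 genes of the list that reached 50 CPM were lower in members than in the other cells in all 3 libraries. The share over all genes that reached 50 CPM was 36%. What part handling of the tissue had in these levels was not tested.

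Fmod, a small proteoglycan of tendon and dura, was at 14.2, 15.6 and 76.3 CPM in Healthy and 60.6 and 29.5 CPM in EAE in members and 513, 667 and 1009.7 CPM in Healthy and 62.7 and 42.4 CPM in EAE in the other cells, with a difference of 4.06 (SE 0.47, edgeR adjusted p = 1.6e-05). Of 8 tested genes from the list of tendon and dural fibroblasts, 5 had a higher effect in members, where 3.8% of all genes did, and none a lower one. Abca8a was at 433, 399 and 331 CPM in Healthy and 261 and 289 CPM in EAE in members (log2 -0.49, SE 0.22, edgeR adjusted p = 0.31). In the other cells it fell, from 229.5, 156 and 149 CPM to 22.5 and 25.2 CPM (log2 fold change -2.87, SE 0.29, edgeR adjusted p = 6.6e-04). Ebf2 had a difference of 1.79 (SE 0.25, edgeR adjusted p = 1.6e-05), from 213, 210.03 and 197 CPM in Healthy and 250.3 and 373 CPM in EAE in members and 74.7, 69.7 and 52.8 CPM in Healthy and 25.1 and 30 CPM in EAE in the other cells. Igfbp6, a binding protein of insulin-like growth factor 2, rose in members (log2 0.81) and fell in the other cells (log2 -1.21), with adjusted p from edgeR of 0.03 and 0.046 and of 7.2e-08 for the difference.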

How the data were processed

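Spinal cord cells sorted for the Col1a1 reporter were profiled with 10x Genomics v2 chemistry in 5 libraries, 3 Healthy and 2 EAE. The deposited files hold raw UMI counts per gene and barcode, one filtered matrix per library, and the submitters' processing notes name Cell Ranger 2.1.1, Seurat 3 and mm10. Genes shared by all tables numbered 27998. A barcode needed 200 detected genes or more and no more than 10% of UMIs from mitochondrial genes, and one found in several files of the first batch was kept where its UMI total was highest. Doublets were not called or removed. UMI counts of a cell set were summed per library and tested with edgeR 4.0.16 (R 4.3.3) by the quasi-likelihood F test with TMM scaling, filterByExpr, a batch term and Benjamini-Hochberg adjustment at 0.05. The difference of effects used an interaction of cell set and state with library as a block. The standard error is the fold change over the root of F. DESeq2 1.42.0 was an alternative, and numpy 2.4.6, scipy 1.17.1 and pandas 2.3.3 did the rest. The edgeR script was tested on simulated data with known changes.

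The members, lists, markers and tests were chosen with earlier results of these data known. Named genes were, among called genes averaging 50 CPM or more whose states did not overlap, the 12 that rose most and the 12 that fell most, up to 2 in each direction per list, the 8 rule genes, Gsn and Ret, the 15 genes with the largest smallest ratio in health, and the 5 largest differences of effect in each direction. Genes named beyond that rule (Sfrp5 and H2-Q7, C3, Cxcl9, Irgm1, Junb, Fmod, Abca8a, the type V collagens and the 10 lowest ratios among them) were chosen after their values were seen. Alternatives changed 1 choice at a time: the tool, the scaling, the filter, the batch term, each library left out, the treatment of shared barcodes, the depth and the rule. One gene of the acute phase and complement list is counted but not reported here by name.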

Additional observations from a re-analysis of the deposited data

Results flagged for a closer look

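The effect of EAE differed between Osr2 Gfra1 fibroblasts and the other collagen-positive cells, by edgeR's test of the interaction, for 10 named genes. It was higher in members for Gpx3 (6.96 on the log2 scale), Saa3 (4.73), Rbp4 (4.12), Lcn2 (3.87) and Ctgf (3.17). The Lcn2 value turned to -1.61 (edgeR adjusted p = 0.85) without cells that carried UMIs of other cell types. It was lower in members for Col6a3 (-2.28), Cyp1b1 (-2.24), Mif (-1.81), Vcan (-1.80) and Piezo2 (-1.78). Healthy levels in the other cells came from few of them: Saa3 in 18 and Lcn2 in 16 of 536 in Healthy 1, and Gpx3 in 20 of 224 in Healthy 2. In EAE 1 and EAE 2 Saa3 was seen in 66.5 and 35.2% of other cells and 59.1 and 43.8% of members. Lcn2 was seen in 47.6 and 18.3% of other cells and 25.8 and 15.6% of members.

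Cyp1b1, a cytochrome of retinoid and steroid metabolism, was at 110.1, 115 and 84.1 CPM in Healthy and 208 and 86.3 CPM in EAE in members and 153, 85.2 and 95.3 CPM in Healthy and 838 and 517 CPM in EAE in the other cells. Mif, the cytokine macrophage migration inhibitory factor, was at 217, 265 and 242 CPM in Healthy and 200.3 and 168 CPM in EAE in members and 293, 217 and 176 CPM in Healthy and 681 and 481 CPM in EAE in the other cells. In both cases the rise lay in the other cells. Vcan was at 231, 165 and 287 CPM in Healthy and 124 and 132 CPM in EAE in members and 92.6, 63.5 and 45.4 CPM in Healthy and 99.5 and 158 CPM in EAE in the other cells. Piezo2, a mechanosensitive channel, was at 78.1, 25.5 and 55 CPM in Healthy and 47.4 and 75 CPM in EAE in members and 24.9, 15.5 and 23.4 CPM in Healthy and 72 and 101 CPM in EAE in the other cells.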

How the results depend on the processing

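Values stand as higher and lower gene counts. In members, where 130 genes were higher and 61 lower, DESeq2 gave 62 and 22, no filter on low counts 213 and 152, no batch term 74 and 35, leaving out barcodes found in several files 64 and 21, the stricter marker rule 46 and 14, dropping cells with at least 2 UMIs of other cell types 34 and 8, a marker rule without Smoc2 37 and 9, and thinning members to 1000 UMIs 51 and 23. Leaving out 1 library gave 84 to 274 higher (fewest without EAE 1, most without Healthy 1) and 41 to 207 lower. No gene of the 191 was called in the opposite direction in any of these. In the other collagen-positive cells (494 and 475), no filter gave 981 higher, no batch term 293 and 296, all barcodes as deposited 75 and 197, no shared barcodes 137 and 136, dropping mixed cells 144 and 131, and leaving out 1 library 163 to 979 and 212 to 826. For the difference of effects (322 and 201), DESeq2 gave 145 and 111, all barcodes as deposited 135 and 43, no shared barcodes 205 and 112, dropping mixed cells 40 and 48, thinning 140 and 107, the stricter rule 159 higher, the rule without Smoc2 174 higher, and leaving out 1 library 172 to 263 and 88 to 179. Dropping mixed cells, the Lcn2 difference turned to -1.61 (edgeR adjusted p = 0.85). Several of these settings hold fewer cells or genes, and otherwise the cause was not tested. The share in EAE minus Healthy, -32.3 percentage points, was -14.8 at 1000 UMIs per cell and -18.6 with all barcodes as deposited, and kept its sign without any 1 library.

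RLE scaling, library totals and a minimum of 1000 UMIs per cell left the counts in members within 1.5 times of those reported. The rule without Smoc2 and thinning after the rule were chosen after seeing the data. Tests in cells thinned before the rule were not run, since EAE 1 held 9 such members and EAE 2 17. No paired analysis was possible because the label of EAE 1 carries no replicate number (the 1 is only a name given here), so the states share fewer than 2 numbers. With 93 and 96 members in EAE and 379478 and 440187 UMIs, genes of few UMIs could not be tested.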

Other observations

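Further gene lists were counted in members. Of 17 chemokine and cytokine genes tested, 1 rose (Il6st, the shared receptor of the interleukin 6 family, 266, 332 and 380.3 CPM in Healthy and 651 and 541 CPM in EAE) and none fell, while in the other collagen-positive cells 7 of 25 rose and 2 fell. Of 19 genes of endoplasmic reticulum stress none passed in either direction by edgeR. Of 21 genes of SMOC proteins, BMP and TGF-beta signalling, Sparcl1, an adhesion-modulating matrix protein, fell (1175, 1050.1 and 1547 CPM in Healthy and 495 and 718 CPM in EAE) and none rose, where the other cells had 9 of 28 lower and 1 higher. Of 11 tested neurotrophin, semaphorin and guidance genes, Efnb2, a ligand of Eph receptors, rose (67.5, 66.7 and 108 CPM in Healthy and 182 and 216 CPM in EAE), and Ngfr and Reln fell. Among 17 genes of lipid transport and binding Rbp4 and Pltp, a phospholipid transfer protein, rose. The call on Il6st was lost under 8 of 17 alternatives, that on Efnb2 under 4 of 17 and that on Pltp under 11 of 17. Of all genes tested in members 3.34% were called, and of those tested in the other cells 6.21% were higher and 5.97% lower.

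Cells picked by Clec3b, Fmod and Igfbp2, another fibroblast set of the same sort, held less Gpc3 and Ccl11 than the members in every library. Dlk1 was less even: it was at 115, 0 and 6.56 CPM there in Healthy 1, 2 and 3, against 202, 132 and 211 CPM in members. Gpc3 was at 157, 141, 219, 92.3 and 198 CPM there in Healthy 1, 2, 3, EAE 1 and EAE 2, against 1988, 1683 and 1847 and 1299 and 1633 CPM in members. Ccl11 was at 52.3, 89.4, 21.9, 61 and 71.5 CPM there, against 1697, 1482 and 685 and 954 and 579 CPM in members. These levels describe both sets, and no test was made between them. Levels in the Itih5, Hsd11b1 and Edn3 cells, a larger part of which were members in Healthy 2 and Healthy 3, are not given here. Whether these traits set the members apart from those cells was thus not examined.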
